A study of Mus musculus with 6 samples.

Results

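The replicative helicase subunits MCM2 to MCM7 and GINS1 to GINS4 were followed at the transcript level in a morula-like aggregate model of the mouse embryo. All 10 subunit genes were found by symbol among the 18388 genes of the deposited table, 6 of them MCM and 4 of them GINS. The aggregates, 3-dimensional clusters grown from expanded pluripotent stem cells of the mouse, were treated with perfluorooctanoic acid (PFOA, a persistent fluorinated surfactant; 3 libraries) or with the vehicle dimethyl sulfoxide (DMSO; 3 libraries). These stem cells hold a state with broad developmental potential, and every library came from cultures kept in N2B27LCDM medium and then in an induction medium at 37 °C with 5% CO2 and 20% O2. The labels name no genotype, and no dose or duration of PFOA is given there. The series title places the comparison in a study of c-MYC and embryo compaction. The labels do not describe replicates as independent cultures; p-values therefore reflect the variation among these 6 libraries alone, which could be technical.

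The helicase is the motor that unwinds DNA ahead of the replication fork. The MCM2 to MCM7 proteins form a ring that is loaded onto origins in G1 by the origin recognition complex, Cdc6 and Cdt1. When S phase begins, Cdc45 and the GINS complex (Gins1, Gins2, Gins3 and Gins4, also named Psf1, Psf2, Psf3 and Sld5) join the ring and it becomes an active helicase. Genes of both complexes are known targets of E2F transcription factors and are transcribed most in late G1 and S phase. Pluripotent stem cells and cleavage-stage embryos divide fast, with a short G1, and carry large amounts of MCM protein. In RNA from whole aggregates, fewer replicating cells and less RNA per replicating cell cannot be told apart.

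Promoter windows show what the subunit genes share before any level is compared. RefSeq windows on GRCm38.p6, from 250 bases before to 50 bases after the start of transcription, were at hand for 6 of the 10 genes: Mcm2, Mcm3, Mcm5, Mcm6, Mcm7 (which has 2 windows) and Gins3. The 4 windows below hold letters that match the E2F consensus, spelled TTTGGCGC, TTTGCCGC, TTTCGCGC or TTTCCCGC and searched on both strands. Such matches stand before the start of Mcm5, Mcm6 and Gins3 and after that of Mcm3. The upstream window of Mcm7 also holds matches and is not shown. Capitals mark the matches, and each window reads 5′ to 3′ on the strand of its gene. The Mcm3 window lies at chr1:20820263-20820562 (minus strand), that of Mcm5 at chr8:75109259-75109558 (plus strand), that of Mcm6 at chr1:128359656-128359955 (minus strand) and that of Gins3 at chr8:95633309-95633608 (plus strand).
Mcm3: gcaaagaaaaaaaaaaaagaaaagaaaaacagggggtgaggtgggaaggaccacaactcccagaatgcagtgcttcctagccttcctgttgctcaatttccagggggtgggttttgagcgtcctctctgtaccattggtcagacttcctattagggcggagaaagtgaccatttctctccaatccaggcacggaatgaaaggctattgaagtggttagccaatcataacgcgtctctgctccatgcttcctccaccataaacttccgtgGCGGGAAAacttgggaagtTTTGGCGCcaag
Mcm5: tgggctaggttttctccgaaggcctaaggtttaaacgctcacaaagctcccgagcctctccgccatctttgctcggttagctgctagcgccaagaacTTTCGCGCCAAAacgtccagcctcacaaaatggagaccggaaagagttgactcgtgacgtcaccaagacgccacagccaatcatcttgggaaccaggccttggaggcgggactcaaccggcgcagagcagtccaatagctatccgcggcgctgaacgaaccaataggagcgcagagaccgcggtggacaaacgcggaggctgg
Mcm6: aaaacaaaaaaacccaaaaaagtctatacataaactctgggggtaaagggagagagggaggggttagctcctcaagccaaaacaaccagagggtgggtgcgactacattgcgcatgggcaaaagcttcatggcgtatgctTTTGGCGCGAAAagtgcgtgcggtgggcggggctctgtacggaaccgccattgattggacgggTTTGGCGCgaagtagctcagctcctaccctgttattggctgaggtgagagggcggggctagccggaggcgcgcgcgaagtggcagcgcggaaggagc
Gins3: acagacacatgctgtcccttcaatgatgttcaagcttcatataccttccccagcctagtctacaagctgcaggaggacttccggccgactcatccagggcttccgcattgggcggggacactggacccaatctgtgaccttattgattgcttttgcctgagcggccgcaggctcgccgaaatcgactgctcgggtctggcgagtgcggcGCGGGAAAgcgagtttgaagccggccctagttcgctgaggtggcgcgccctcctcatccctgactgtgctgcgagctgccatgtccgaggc

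The E2F letters occurred in 5 of the 7 member windows, those of 5 genes, while 2.26% of all 32851 RefSeq promoter windows held them. In Mcm5 a forward TTTCGCGC, beginning 153 bases before the start, overlaps a TTTGGCGC on the opposite strand. Mcm6 has the same arrangement beginning 110 bases before the start, where TTTGGCGC overlaps an opposite TTTCGCGC, and another TTTGGCGC 47 bases before it. The matches of Mcm3 lie after the start, at bases 20 and 39. The window of Mcm2 and the downstream window of Mcm7 held none of these letters, and the upstream window of Mcm7 held 2 matches. CCAAT, the letters of the NF-Y box, occurred on one strand or the other in 7 of 7 member windows and in 37.4% of all windows. The E-box CACGTG, the letters bound by MYC with MAX, was in 0 of the 7 windows and in 7.15% of all windows. A match is a description of letters and not evidence of binding.

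The libraries were alike, with 16823 to 16913 genes above 0 in each. FPKM (fragments per kilobase of transcript, scaled to library size, as deposited) summed to 585739 to 630644 in PFOA and 641975 to 657239 in DMSO, and the number of reads behind a value is unknown. Spearman's rho across tested genes was 0.996 to 0.997 within PFOA, 0.995 to 0.996 within DMSO and 0.991 to 0.997 between the groups. DMSO 3 had its highest rho with PFOA 2 (0.997), above those with DMSO 1 (0.995) and DMSO 2 (0.996). The 8 pluripotency markers were abundant, summing to 3808 to 4306 FPKM in PFOA and 4458 to 4659 FPKM in DMSO. Of them 3 were above 0 on the log2 scale and 5 below, from -0.21 (Dppa5a) to 0.22 (Tfcp2l1), and 0 passed the limma adjusted threshold. At an unadjusted limma p under 0.05, 1 was above and 2 were below 0, beside 8.56% and 12.5% of all tested genes. The 8 fibroblast markers summed to 18.8 to 20.4 FPKM in PFOA and 21.1 to 26.0 in DMSO, with none at 0. Of these 6 were tested, and all 6 were below 0 (median -0.19). At an unadjusted limma p under 0.05, 2 of the 6 were lower, beside 12.5% of all tested genes. The 8 trophectoderm markers summed to 508 to 579 and 524 to 598, and the 8 primitive endoderm markers to 15.5 to 16.3 and 13.9 to 15.1. Of those tested, 3 trophectoderm markers were above 0 and 4 below, and 2 primitive endoderm markers above and 1 below. The unadjusted limma p was under 0.05 for 0 of these trophectoderm markers and for 1 of 3 primitive endoderm markers, which was higher. In these lists 0 passed the limma adjusted threshold. The part of these marker levels in the subunit values was not tested.

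The MCM2 to MCM7 transcripts were all abundant, between the 93.3 and the 96.8 percentile of tested genes by mean FPKM. Mcm7, an ATPase subunit of the ring, had the highest level of the 6 genes, with 216, 221 and 226 FPKM in PFOA 1, 2 and 3 against 214, 225 and 220 FPKM in DMSO 1, 2 and 3. The groups overlapped. Its transcripts share 19.9% of their 50-nt words with other genes, mostly with the processed pseudogene Gm5487, the largest share among the 10, so its level is uncertain where reads could be split. Mcm2, the subunit that also handles parental histones at the fork, had 153, 155 and 158 FPKM in PFOA and 155, 151 and 150 FPKM in DMSO, again overlapping.

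Mcm3, whose tail in yeast meets the origin recognition complex during loading, had 154, 149.5 and 156 FPKM in PFOA against 143, 148 and 149 FPKM in DMSO. Each PFOA library lay above each DMSO library, by less than 1 FPKM at the nearest pair. Mcm6, another subunit of the ring, had 150.4, 141 and 139 FPKM in PFOA against 134, 134 and 139 FPKM in DMSO. PFOA 1 was the high library, and PFOA 3 and DMSO 3 were nearly level. Mcm5, which forms the gate with Mcm2 through which DNA enters, had 126, 129 and 128 FPKM in PFOA against 131, 130.4 and 131 FPKM in DMSO, so here every PFOA library was the lower.

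Mcm4, a ring subunit whose tail is phosphorylated by the Cdc7 kinase when origins fire, had the lowest level of the 6 and, on the log2 scale over all libraries, the largest difference among them. Without PFOA 3 that of Mcm6 was as large (0.10 for each). It was at 118, 116 and 117 FPKM in PFOA 1 to 3 against 109, 107 and 111 FPKM in DMSO 1 to 3. The groups were apart, with 117 ± 1.1 FPKM in PFOA and 109 ± 1.9 FPKM in DMSO (SD, n = 3 each), a log2 fold change of 0.10 (SE 0.033, 95% confidence interval 0.022 to 0.17). That did not pass the test across all genes (limma, Benjamini-Hochberg adjusted p = 0.166). Prkdc, the DNA-dependent protein kinase gene that neighbours Mcm4, was at 5.75 ± 0.37 FPKM in PFOA and 4.81 ± 0.13 FPKM in DMSO, and did not pass either (log2 fold change 0.21, limma adjusted p = 0.137).

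Levels per length compare between genes only as far as the lengths used are right, and the authors' annotation is unknown. By deposited FPKM the order of the ring subunits was Mcm7, Mcm2, Mcm3, Mcm6, Mcm5 and Mcm4 in both groups. The ranges of Mcm2 and Mcm3 overlapped in PFOA, as did those of Mcm3 and Mcm6 there. In DMSO the ranges of neighbours in this order did not overlap. The subunits enter the ring in equal numbers, yet the highest transcript was 1.89 ± 0.057 times the lowest in PFOA and 2.02 ± 0.072 times in DMSO (SD, n = 3 each). Mcm4 made up 12.9%, 12.7% and 12.6% of the summed MCM2 to MCM7 FPKM in PFOA 1 to 3, against 12.3%, 12.0% and 12.4% in DMSO 1 to 3. Mcm5 made up 13.8%, 14.1% and 13.9% in PFOA against 14.7%, 14.6% and 14.6% in DMSO. These were the ring subunits whose share did not overlap between the groups. The other 4 overlapped. How often such shares are apart in other sets of genes was not tested.

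**Figure D1:**
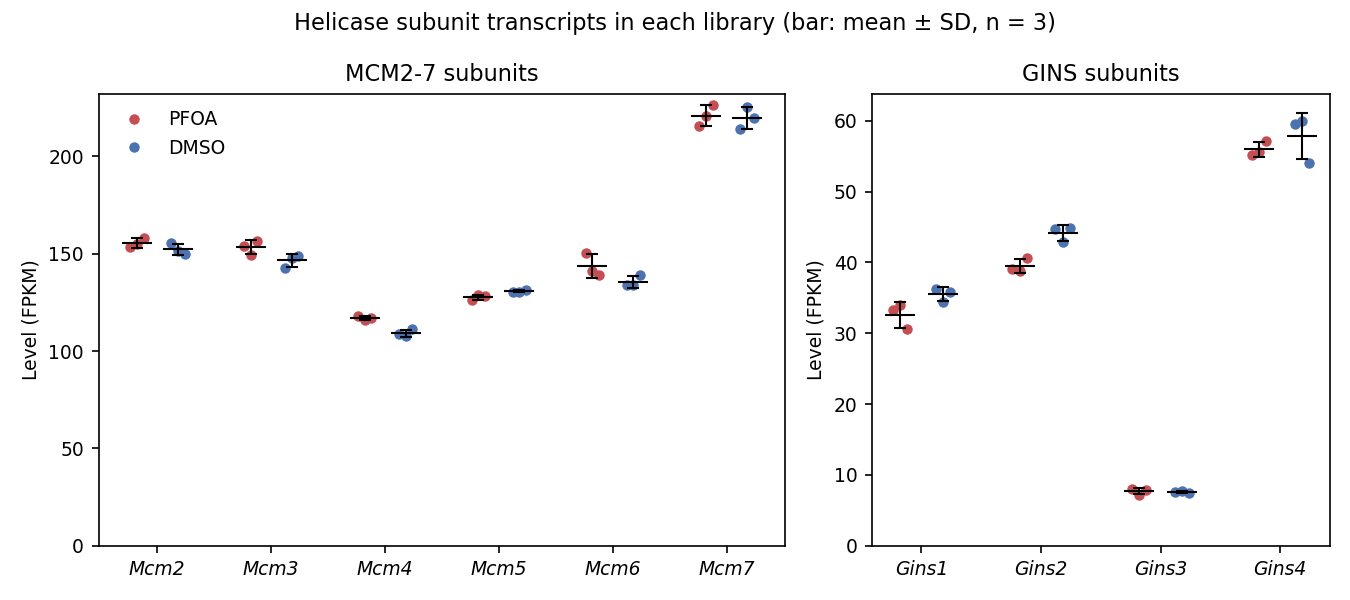
FPKM of each subunit gene in each library; points are libraries, PFOA left and DMSO right, and black bars give the mean ± SD (n = 3). The MCM panel runs from Mcm4 near 110 to Mcm7 near 220 FPKM, the GINS panel from Gins3 near 8 to Gins4 near 60 FPKM, and within each gene the groups lie close together.

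GINS transcripts were less abundant and more uneven. Gins4, the subunit Sld5, had 55.2, 55.5 and 57.2 FPKM in PFOA 1 to 3 against 59.5, 60.0 and 54.1 FPKM in DMSO 1 to 3. The groups overlapped, since DMSO 3 was the lowest of the 6 libraries. Gins2, the subunit Psf2, had 39.1, 38.8 and 40.6 FPKM in PFOA against 44.7, 42.9 and 44.9 FPKM in DMSO. Every PFOA library was below every DMSO library, with 39.5 ± 0.94 FPKM in PFOA and 44.1 ± 1.1 FPKM in DMSO (SD, n = 3 each). This was the largest difference of the 10 genes, a log2 fold change of -0.16 (SE 0.038, 95% confidence interval -0.24 to -0.071; -10.3%), and ranked 264 by p among 11876 tested genes. It did not pass (limma, Benjamini-Hochberg adjusted p = 0.127). The 3′ end of Gins2 overlaps its neighbour Gse1 in RefSeq, and no source used here says whether the authors counted by strand. Gse1 was at 23.1 ± 0.89 FPKM in PFOA and 22.5 ± 0.66 FPKM in DMSO (SD, n = 3 each). Of the neighbours of Mcm7, Cops6 was at 147 ± 4.4 and 161 ± 4.0 FPKM, with the groups apart, and Ap4m1 at 12.3 ± 0.53 and 11.5 ± 0.34 FPKM, overlapping (limma adjusted p = 0.137 and 0.332).

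Gins1, the subunit Psf1, had 33.2, 34.0 and 30.6 FPKM in PFOA against 36.3, 34.4 and 35.8 FPKM in DMSO. The groups were apart by 0.4 FPKM between PFOA 2 and DMSO 2, and the log2 fold change of -0.12 did not pass (SE 0.049, 95% confidence interval -0.23 to -0.010, limma adjusted p = 0.209). Gins3, the subunit Psf3, was the least abundant, with 8.04, 7.21 and 7.89 FPKM in PFOA against 7.57, 7.67 and 7.46 FPKM in DMSO. Its groups overlapped and its level stood at the 37.5 percentile of tested genes. Its share of the summed GINS FPKM was 5.933%, 5.319% and 5.796% in PFOA against 5.115%, 5.29% and 5.245% in DMSO, which are apart. The shares of Gins1, Gins2 and Gins4 overlapped. The order Gins4, Gins2, Gins1 and Gins3 held in all libraries without overlap, and the highest was 7.27 ± 0.42 times the lowest in PFOA and 7.64 ± 0.34 times in DMSO.

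Across the helicase no subunit passed the threshold: 0 of 10 had a limma Benjamini-Hochberg adjusted p under 0.05, where 1 of 11876 tested genes did (0.00842%). At an unadjusted p under 0.05 in limma, 1 of 10 was higher in PFOA (Mcm4), against 8.56% of tested genes, and 2 of 10 were lower (Gins1 and Gins2), against 12.5%. The libraries were fully apart with PFOA above for 3 of 10 (Mcm3, Mcm4 and Mcm6), against 13.5% of tested genes, and with PFOA below for 3 of 10 (Mcm5, Gins1 and Gins2), against 13.7%. The other 7 genes had limma adjusted p-values from 0.291 (Mcm6, log2 fold change 0.08) to 0.923 (Mcm7, 0.0080), with Mcm3 at 0.333 (0.07). The 95% confidence intervals of all 10 log2 fold changes lay between -0.244 and 0.176. The median log2 fold change was 0.048 for the 6 MCM genes, 5 of them above 0, and -0.084 for the 4 GINS genes, 3 of them below 0, beside -0.0065 over all tested genes. After rescaling to 1 library sum these medians were 0.14 for MCM and 0.0024 for GINS, beside 0.074 over all tested genes. Mcm5 was above 0 after quantile normalization (0.02) or that rescaling (0.05), and Gins4 after the rescaling (0.04).

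The complexes were also compared as sums, as a description with no test. The MCM2 to MCM7 FPKM summed to 918, 911 and 925 in PFOA 1 to 3 against 885, 896 and 899.6 in DMSO 1 to 3. The GINS FPKM summed to 135.5, 135.5 and 136 in PFOA against 148, 145 and 142 in DMSO. These sums as deposited were apart in opposite directions. The libraries differ in total FPKM, however, and as a share of that total GINS made up 0.0231%, 0.0215% and 0.0218% in PFOA against 0.0226%, 0.0221% and 0.0222% in DMSO, which overlap. The MCM share was 0.157%, 0.144% and 0.148% in PFOA against 0.135%, 0.136% and 0.140% in DMSO, which are apart. With libraries rescaled to the same sum, the log2 medians of all tested genes were apart in that direction too. Relative to the DMSO mean they were 0.135, 0.037 and 0.057 in PFOA 1 to 3 against -0.0017, -0.011 and 0.015 in DMSO 1 to 3. The MCM sum was 6.77, 6.72 and 6.79 times the GINS sum in PFOA against 5.98, 6.18 and 6.33 times in DMSO. That ratio does not depend on the library total. DMSO 3 was the control nearest to PFOA in the deposited sums and in the ratio.

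**Figure D2:**
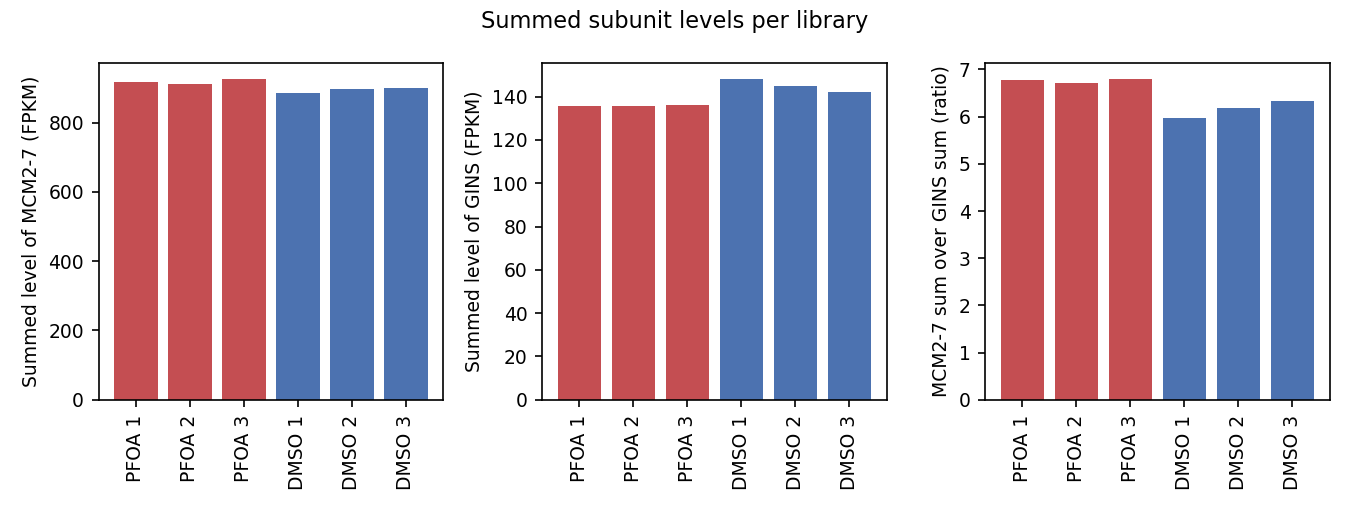
Summed FPKM of MCM2 to MCM7, summed FPKM of GINS and their ratio in each library, 1 bar per library, PFOA red and DMSO blue. The ratio was 6.72 to 6.79 in PFOA and 5.98 to 6.33 in DMSO.

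Transcript length moved with the groups, and coding length separates the complexes. Tested genes whose longest coding transcript in GENCODE M21 is 1000 to 2000 nt were at a median of -0.091 on the log2 scale (PFOA over DMSO), with 81.8% of 2421 below 0, and those of 4000 nt or more had a median of 0.066, with 77.8% of 3850 above 0. The MCM transcripts span 2962 nt (Mcm7) to 4355 nt (Mcm6). Gins1 is 1087 nt, Gins4 1349 nt, Gins3 2519 nt and Gins2 3900 nt. Gins2 therefore lies within the MCM range, whereas the coding sequences do not overlap, at 2157 to 2712 nt for MCM2 to MCM7 and 555 to 669 nt for GINS. With a trend on transcript length removed from each library, the median log2 fold changes were 0.042 for MCM and 0.032 for GINS. The MCM medians per library, relative to the DMSO mean, stayed apart, at 0.046, 0.039 and 0.052 in PFOA 1 to 3 against -0.017, -0.0036 and 0.022 in DMSO 1 to 3. Those of GINS overlapped, at 0.11, -0.0086 and -0.023 in PFOA against 0.014, -0.011 and 0.013 in DMSO, with PFOA 1 the high library. Gins1 was then at 0.0089 and Gins2 at -0.17 (limma adjusted p = 0.968 and 0.2). These values rest on the longest coding transcript of each gene, and the lengths that the authors used are unknown.

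With a trend on coding length removed, an alternative chosen after seeing the data, the medians were 0.0017 for MCM and 0.0018 for GINS, and the groups overlapped in the per-library medians of either complex. The MCM medians, relative to the DMSO mean, were then -0.033, -0.0031 and 0.019 in PFOA 1 to 3 against -0.013, -0.0019 and 0.013 in DMSO 1 to 3. Those of GINS were 0.051, -0.0011 and 0.0007 in PFOA against 0.010, -0.017 and 0.017 in DMSO. The log2 fold changes of Gins2, Gins1 and Mcm4 were -0.06, -0.03 and 0.05 in that fit (limma adjusted p = 0.539, 0.838 and 0.474).

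**Figure D3:**
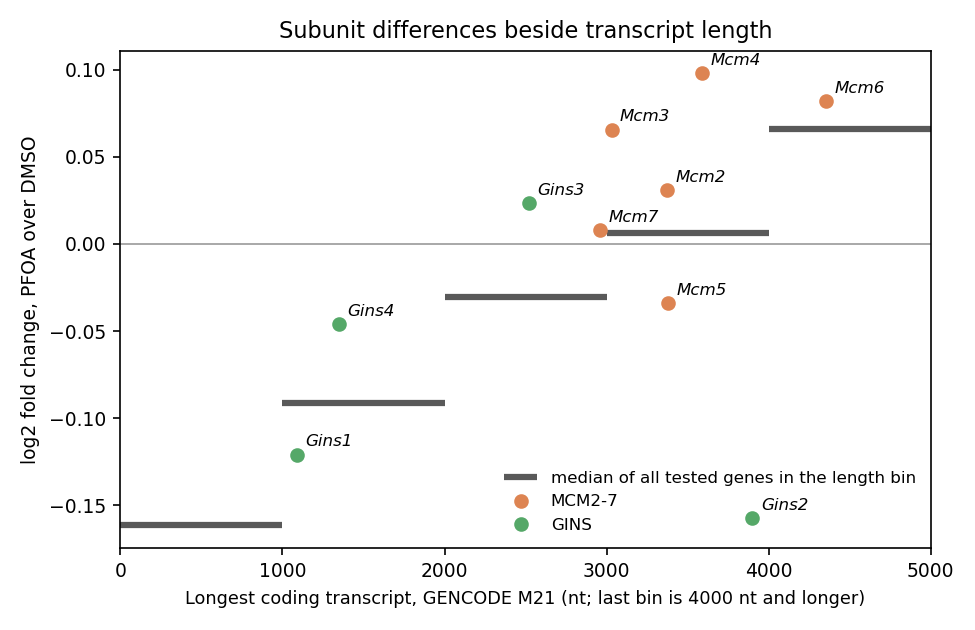
Log2 fold change of each subunit gene, PFOA over DMSO, against the length of its longest coding transcript in nt; grey lines are the medians of all tested genes in 5 length bins. The bin medians go from -0.16 below 1000 nt to 0.066 at 4000 nt and longer, and Gins2 at 3900 nt lies below its bin's line.

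**Figure D4:**
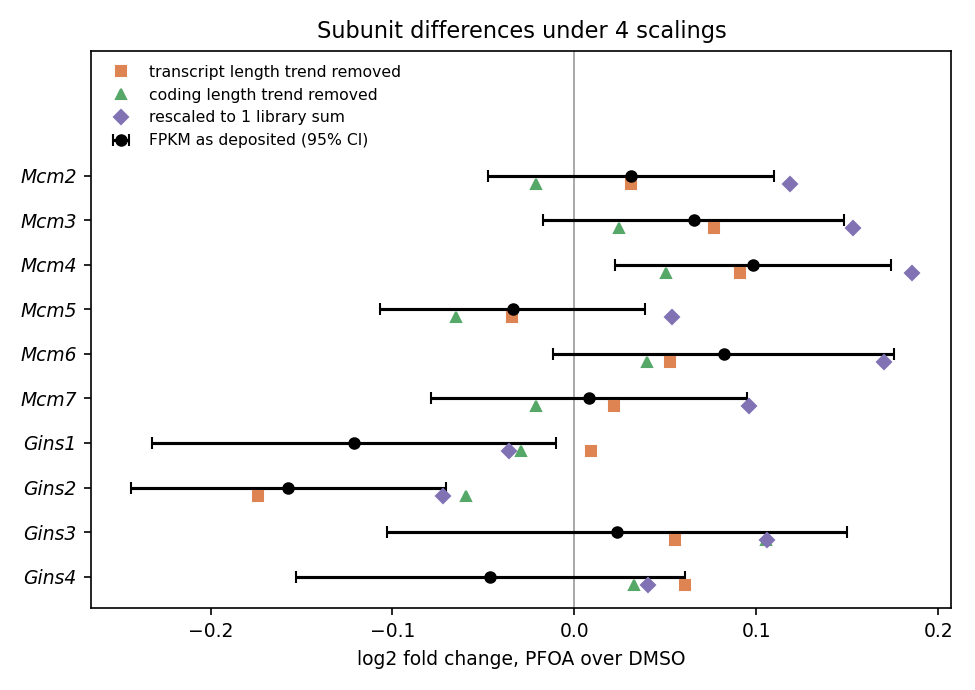
Log2 fold change of each subunit, PFOA over DMSO, with the 95% confidence interval for FPKM as deposited (black), and the value after a transcript length trend (squares) or a coding length trend (triangles) is removed or after rescaling each library to 1 sum (diamonds). Gins2 stays below 0 and Mcm3, Mcm4, Mcm6 and Gins3 above 0 in all 4, and Mcm2, Mcm5, Mcm7, Gins1 and Gins4 have values on both sides of 0.

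Genes that act beside the helicase were read from the same fit, and 0 of the 70 genes in the 7 lists passed the limma adjusted threshold. At an unadjusted p under 0.05 in limma, 7 of the 70 were higher, beside 8.56% of all tested genes, and 8 (11.4%) were lower, beside 12.5%. Of 12 activation and fork genes, 10 were above 0 (median 0.060), beside 5651 of 11876 tested genes. At an unadjusted p under 0.05 in limma 3 of the 12 were higher, against 8.56% of all tested genes. The median transcript length of this list was 3590.5 nt, beside 3038 nt over all tested genes, and the part of length was not tested. Ticrr (treslin), which helps to bring Cdc45 to the ring, was at 49.8 ± 2.8 FPKM in PFOA and 43.9 ± 2.2 FPKM in DMSO (SD, n = 3 each; limma adjusted p = 0.143; transcript 7199 nt). Cdc7, the kinase that phosphorylates Mcm4, was at 16.3 ± 0.42 and 15.0 ± 0.60 FPKM (0.217). Cdc45, the partner of GINS in the active helicase, was at 32.3 ± 0.34 FPKM in PFOA and 34.0 ± 1.5 FPKM in DMSO (0.381).

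Of 9 origin and licensing genes, 3 were above 0 and 6 below (median -0.0004). Geminin (Gmnn), the inhibitor of Cdt1, was at 69.6 ± 0.040 FPKM in PFOA and 80.6 ± 3.0 FPKM in DMSO, with the groups apart (log2 fold change -0.21, limma adjusted p = 0.11). Its coding transcript is 1127 nt long. Orc4, of the origin recognition complex, was at 15.7 ± 0.99 and 17.9 ± 0.73 FPKM (0.151). Its transcript is 4066 nt long, and the part of length in single genes was not tested. The 4 genes of the list that joins other MCM-named genes and the MCM-binding protein lay between -0.0021 and 0.076. Mcm10, which stimulates activation of the ring, was at 59.6 ± 0.86 FPKM in PFOA and 58.4 ± 1.6 FPKM in DMSO. Mcm8 was at 10.2 ± 0.28 and 9.62 ± 0.47 FPKM, and Mcm9, its partner in recombination repair, at 4.92 ± 0.36 and 4.80 ± 0.38 FPKM.

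Replicative polymerases split evenly, 6 above and 6 below 0 (median 0.0027). The catalytic subunits Pole, 27.4 ± 1.2 FPKM in PFOA and 23.9 ± 0.52 FPKM in DMSO (limma adjusted p = 0.127), and Pola1, 16.7 ± 1.5 and 14.4 ± 0.50 FPKM (0.157), had the smallest p. Their transcripts are 7163 and 5346 nt long. Of 12 clamp, clamp loader, single-strand binding and Okazaki fragment genes, 9 were below 0 (median -0.031). Rpa3, the small subunit of the single-strand binding protein, was at 30.0 ± 1.7 FPKM in PFOA and 38.4 ± 2.9 FPKM in DMSO (0.11; transcript 670 nt), and the flap nuclease Fen1 at 54.5 ± 0.65 and 58.5 ± 1.2 FPKM (0.169). In the unloading list 4 of 6 were above 0 (median 0.018). Ubxn7, a cofactor of the p97 unfoldase, was at 16.7 ± 1.6 and 15.1 ± 0.57 FPKM (0.302), and the ubiquitin ligase Traip at 20.5 ± 1.3 and 21.9 ± 1.2 FPKM (0.375).

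**Figure D5:**
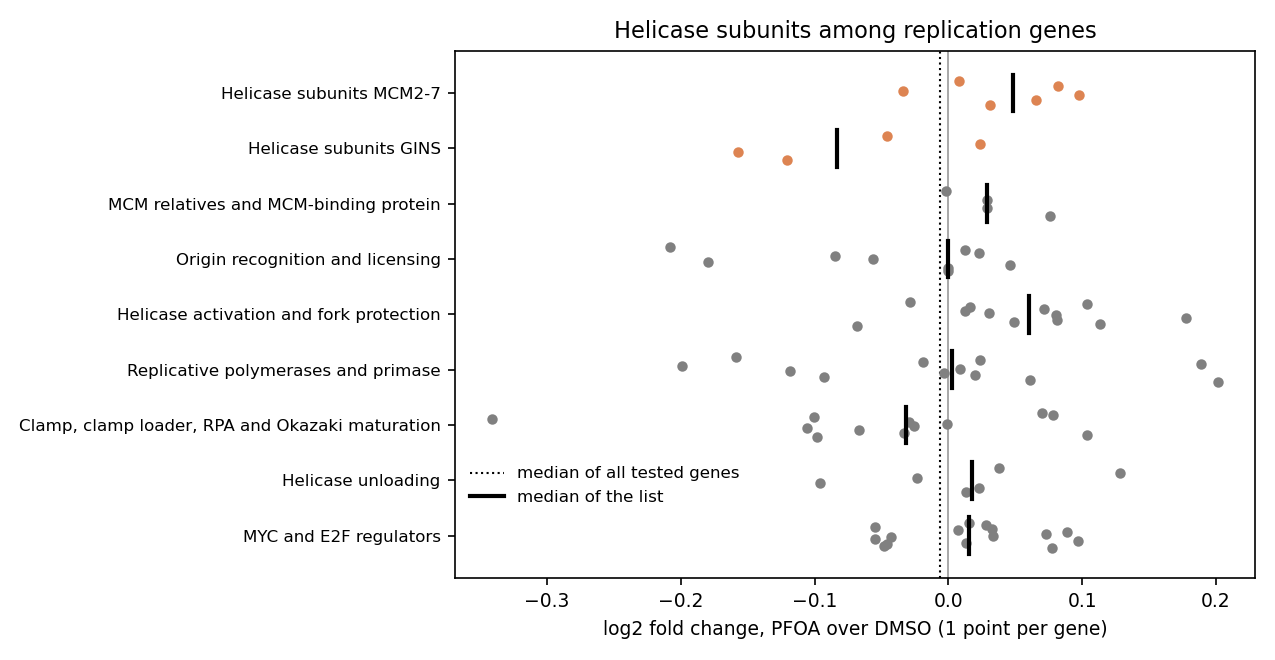
Log2 fold change of each tested gene, PFOA over DMSO, in the 2 helicase complexes (orange) and 7 other replication lists (grey); 1 point per gene, black bars are list medians and the dotted line is the median of all tested genes. List medians run from -0.084 for GINS to 0.060 for activation and fork genes.

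Of 15 MYC and E2F regulators, 10 were above 0 and 5 below (median 0.015). The repressor E2f8 was at 23.8 ± 0.32 FPKM in PFOA and 22.3 ± 0.32 FPKM in DMSO (SD, n = 3 each; limma adjusted p = 0.225), and the activator E2f3 at 14.8 ± 0.97 and 13.7 ± 0.19 FPKM (0.332). Myc was at 26.1 ± 0.71 and 24.7 ± 1.3 FPKM, with overlapping groups (0.375).

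The genes whose log2 values over the 6 libraries ran most like the mean MCM profile, of 6576 genes searched, were Ccar2, Katna1, Zfp57, Xndc1 and Bcat1 (Pearson's r 0.979 to 0.993). For the mean GINS profile they were Grb2, Adrm1, Hdgf, Gtf2f1 and Max (r 0.981 to 0.985). With 6 libraries and 6576 genes searched, high values can arise through the choice of the top genes alone. Of the 6576 genes, 66 had an r above 0.9 with the MCM profile and 163 with the GINS profile, and all share the same libraries. Zfp57, which guards imprinted methylation, was at 276 ± 7.0 FPKM in PFOA and 257 ± 5.3 FPKM in DMSO, and Max, the partner of MYC, at 65.0 ± 2.0 and 68.7 ± 1.9 FPKM.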

How the data were processed

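RNA-seq values of 6 libraries, 3 PFOA and 3 DMSO by title, were taken from 1 table. FPKM were computed by the authors and deposited to 2 decimals. Per the labels' protocols, 1.2 µg of total RNA with an integrity number above 8.0 was enriched for poly A species, and BGISEQ-500 sequencing followed. HISAT2 2.0.4 and Bowtie2 2.2.5 are listed with GRCm39, per the submitters' processing notes, without their roles. No source used here names the counting tool or annotation. FPKM divides by length and library total, so a shift in abundant or short transcripts moves other values. Depth is unknown: 30.6% of 6063 low values lay within 0.15 of a whole multiple of their gene's lowest value, so reads were not recovered.

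Values were analysed as log2(FPKM + 1) for the 11876 genes with a mean of at least 1 FPKM; 6512 were left out, none of them a subunit. Fold changes refer to log2(FPKM + 1) and are too small for low genes. The PFOA libraries were set against the DMSO libraries with limma 3.58.1 under R 4.3.3 (variance prior with an intensity trend, two-sided). Genes were called at an adjusted p under 0.05, by the Benjamini-Hochberg method over all tested genes. The fit was tested on simulated data without a length trend or differences in library total. That test does not cover these features. Same-numbered libraries had correlations of deviations of -0.107, -0.010 and -0.138, so numbers were not treated as pairs. Lengths came from GENCODE M21 (98.8% of tested genes; coding lengths 97.7%), which is on another build, and were matched by symbol. RefSeq sequences are those of GRCm38.p6. Members and lists were chosen with earlier results of these data known. Named genes are the 10 subunits, the 2 genes with the smallest p of each of the 7 replication lists, Mcm8, Mcm9, Mcm10, Cdc45 and Myc, and the 5 genes most like each complex's mean z-scored profile (mean of at least 10 FPKM). Prkdc, Gse1, Cops6 and Ap4m1 were added as neighbours, and Dppa5a and Tfcp2l1 as the ends of a marker list, after their values were seen. The 18 alternatives were 2 pseudocounts, 2 filters, 2 scalings, the variance prior, library weights, a replicate block, 2 length trends (lowess), a term for DMSO 1 and 2, and leaving out each library.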

Additional observations from a re-analysis of the deposited data

How the results depend on the processing

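Under the 18 alternatives the count of helicase subunits past the adjusted threshold stayed at 0, and 167 of 180 subunit values kept their direction. The 2 filters, the variance prior and the replicate block leave each fold change as it is. Their directions, which are among the 167, were therefore fixed in advance. The medians moved most with scaling and length. For MCM2 to MCM7 the median log2 fold change of 0.048 was 0.12 with quantile normalization, 0.14 with libraries rescaled to the same sum and 0.0017 with the coding length trend removed, and 0.035 to 0.059 with 1 library left out. For GINS the median of -0.084 was -0.055 with quantile normalization, 0.0024 with that rescaling, 0.032 with the transcript length trend removed, 0.0018 with the coding length trend removed, -0.047 with a term for DMSO 1 and 2, and -0.10 to -0.066 with 1 library left out. The rescaling moves the median of all tested genes to 0.074. The coding length trend was chosen after seeing the data.

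Values that changed sign lay between -0.021 and 0.061 after the change. With the coding length trend removed Mcm2 was at -0.021, Mcm7 at -0.021 and Gins4 at 0.033. With the transcript length trend removed Gins1 was at 0.0089 and Gins4 at 0.061, against -0.12 and -0.046 as deposited. Mcm5 was at 0.019 with quantile normalization and 0.054 with rescaling, where Gins4 was at 0.041. Gins4 was at 0.048 with the term for DMSO 1 and 2, and Gins3 at -0.0018 with library weights. With 1 library left out Mcm7 ranged from -0.011 (without DMSO 1) to 0.027, at -0.0093 without PFOA 3, and Gins3 from -0.0039 (without PFOA 1) to 0.066. The length trends and the rescaling act by length and library sum by construction. The cause of the sign changes was not tested under any alternative.

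Over all tested genes, 1 gene was called lower and 0 higher. The lower count was 2 with library weights and 0 with no filter on low values, no variance trend, the replicate block, either length trend or the term for DMSO 1 and 2. It ranged from 0 to 91 with 1 library left out, and the higher count from 0 to 13. Among the replication lists 0 to 1 gene was called lower with 1 library left out. The replicate block changed no call among the subunits, where Gins2 had a limma adjusted p of 0.208 and Mcm4 of 0.307. Depth is unknown, so no floor can be given for the least abundant subunit, Gins3.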
